A study of Mus musculus with 4 samples.

Results

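The ATAC-seq peaks described here lay at the start of a noncoding gene and away from the start of any protein-coding gene. A peak was included when its centre fell between 1000 bp upstream and 100 bp downstream of a transcription start of a gene that GENCODE M1 (mm9) does not class as protein-coding, and in that window of no protein-coding start. In the WT list 322 of 25775 peaks met the rule (1.25%, Wilson 95% interval 1.12 to 1.39%), and in the Tet2 KO list 53 of 3836 peaks did (1.38%, interval 1.06 to 1.80%). The rule used position only. At its limits, the WT peaks just inside lay 986 bp upstream of Gm2529 (8.13-fold over background) and 100 bp downstream of Gm11958 (4.41-fold), and those just outside lay 1002 bp upstream of a U6 copy (10.2-fold) and 105 bp downstream of 9530027J09Rik (4.87-fold). The fold is the enrichment at the peak summit, relative to background signal nearby in that library. Intervals given here are Wilson 95% intervals, which cover counting error only.

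ATAC-seq marks open chromatin with a transposase that inserts adapters into accessible DNA. The cells were primary myoblasts of C57BL/6 mice, grown from satellite cells sorted by flow cytometry from hindlimb muscle and harvested as MyoD+ cells after culture for at least 3 days, with 5000 cells per library. WT mice were compared with Tet2 KO mice, which lack the methylcytosine dioxygenase Tet2 in all tissues through an exon deletion, so an effect on myoblasts cannot be told apart from an earlier effect in the satellite cells or in other tissues. The study had 2 samples of each genotype, but 1 peak list per genotype was analysed and neither could be tied to a replicate, so nothing was tested between genotypes and the comparisons are between 2 lists.

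Both lists skip peak numbers (the highest numbers are 35482 in WT and 8239 in Tet2 KO), so a missing peak may have been called and left out of the list. The local background in its most frequent value was 0.649 fragments per position in WT and 1.38 in Tet2 KO, a ratio of 2.13, which is the only measure of depth here. Of 6 myoblast genes looked at (Myod1, Myf5, Cdh15, Itga7, Des and Pax7), Myod1 and Des had a promoter peak in both lists, and the other 4 had none in either. Of the 4 genes of surface proteins that the sort selected against (Ptprc, Itgam, Pecam1 and Ly6a), only Pecam1 had a promoter peak, in WT, at 11.5-fold. The promoter of Tet2 had 1 peak in WT (7.10-fold) and none in Tet2 KO, which does not check an exon deletion.

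Noncoding genes reach this list by several routes. Long intergenic noncoding RNAs (lincRNAs) and the processed transcripts of the annotation, many of them antisense to a protein-coding gene, are transcribed by RNA polymerase II from promoters of their own. For microRNAs and small nucleolar RNAs the annotated start is the end of the hairpin or of the mature RNA, which is cut from a longer primary transcript or from an intron, so the promoter may lie elsewhere. Small nuclear RNAs such as U1 and U6 have compact promoters of their own, but most of their annotated copies, like most pseudogenes, are inserted copies with no known promoter.

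The WT peaks at Mir206, Airn and Snhg5 are shown first, because their sequence is referred to in what follows. Each is the 200 bp around the peak centre in mm9, on the plus strand, and capitals mark a match on either strand to AP-1 (TGANTCA), the myogenic E box (CAGCTG), ETS (CCGGAA), TEAD (GGAATG) or CCAAT. Mir206, at chr1:20668143-20668342, carried a pair of E boxes. Airn, at chr17:12934066-12934265, carried none of these motifs, and Snhg5, at chr9:88418004-88418203, carried none but held 22 CpG dinucleotides.
Mir206: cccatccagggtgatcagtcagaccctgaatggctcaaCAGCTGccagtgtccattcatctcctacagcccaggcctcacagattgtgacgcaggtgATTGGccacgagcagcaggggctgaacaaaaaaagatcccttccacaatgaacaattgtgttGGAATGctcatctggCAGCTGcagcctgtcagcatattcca
Airn: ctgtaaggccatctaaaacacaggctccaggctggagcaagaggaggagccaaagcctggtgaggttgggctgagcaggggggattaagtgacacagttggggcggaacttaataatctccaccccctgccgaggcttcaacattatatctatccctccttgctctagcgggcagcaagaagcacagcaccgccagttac
Snhg5: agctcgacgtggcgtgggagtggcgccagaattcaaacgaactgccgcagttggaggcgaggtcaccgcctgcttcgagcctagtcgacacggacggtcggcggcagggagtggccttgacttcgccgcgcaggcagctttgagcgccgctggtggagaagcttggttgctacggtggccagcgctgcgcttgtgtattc

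Mir206 encodes a microRNA found almost only in skeletal muscle. Its WT peak (chromosome 1, 20668118 to 20668366) was 8.84-fold over background, with 41 fragments at the summit and a -log10 q of 24.2. The peak centre lay 849 bp upstream of the hairpin, outside protein-coding genes, 52744 bp from the nearest protein-coding start (Il17a). No peak of the Tet2 KO list overlapped it, and 4 peak numbers are skipped between the Tet2 KO peaks on either side. Mir22, a microRNA of heart and skeletal muscle among other tissues, had a weak WT peak (3.68-fold, 23 fragments) 587 bp upstream of its hairpin, and no Tet2 KO peak overlapped it.

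Dnm3os is an antisense RNA within Dnm3 that carries the microRNAs of the miR-199 and miR-214 families. Its start had a WT peak of 7.34-fold (chromosome 1, 164147640 to 164147850) with its centre 9 bp upstream, which was also 200 bp upstream of the Mir199a-2 hairpin. At Airn, the imprinted RNA that runs antisense through Igf2r and silences it in cis, the WT peak was 9.29-fold (chromosome 17, 12934064 to 12934267), 12 bp upstream of the start and in an intron of Igf2r. Neat1, the RNA core of paraspeckles, had a peak of 4.28-fold over a raised local background of 6.47 fragments, 227 bp upstream of its start. The hosts of small nucleolar RNAs Snhg5, Snhg7 and Snhg12 had peaks of 8.25, 6.19 and 5.34-fold, all CpG-rich. None of these 8 sites overlapped a Tet2 KO peak. At Airn no number is skipped between the neighbouring Tet2 KO peaks, so no Tet2 KO peak was called there.

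These genes came from a list of 82 noncoding RNAs of muscle, imprinting and housekeeping. Under the listed symbol, 54 of the 82 are in the annotation. Rn7sk, Rny1 and Rny3 are not among the 54, although the annotation holds genes named 7SK and Y_RNA. The WT list had a peak in the window of 10 of the 54. At 8 the peak was at a noncoding start only, and at Snhg1 and Tug1 a protein-coding start shared the window. The Tet2 KO list had a peak in the window of 0 of the 54. With 14.1% of all WT peaks overlapping a Tet2 KO peak, 8 sites are too few to say that this list differs. The mature microRNAs cut from these hairpins are, with the seed (bases 2 to 8) in capitals and the sequence from RefSeq (GRCm38.p6), as follows, together with those of Mir210 and Mir1968, which are described next. No seed is shared among the 5.
mmu-miR-206-3p: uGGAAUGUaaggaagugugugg
mmu-miR-22-3p: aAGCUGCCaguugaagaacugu
mmu-miR-199a-5p: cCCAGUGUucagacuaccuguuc
mmu-miR-210-3p: cUGUGCGUgugacagcggcuga
mmu-miR-1968-5p: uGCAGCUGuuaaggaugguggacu

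Mir210, a microRNA induced by low oxygen, had one of the strongest peaks among the microRNA genes. Its fold enrichment was 14.3 in WT (43 fragments at the summit) and 6.04 in Tet2 KO (22 fragments). The centre of the WT peak lay 459 bp upstream of the hairpin (chromosome 7, 148407609 to 148408093), 5252 bp from the nearest protein-coding start (Rassf7), in CpG-rich sequence of 69.0% GC. Mir1968 had a WT peak of 14.6-fold and no Tet2 KO peak. That peak lay over the hairpin itself, in an intron of Grtp1, and the E box letters, read as CAGCUG in RNA, lie in both mature arms, in miR-1968-5p within the seed. For the first, with 20 CpG dinucleotides, and the second, with 0, the windows are chr7:148407752-148407951 and chr8:13188907-13189106.
Mir210: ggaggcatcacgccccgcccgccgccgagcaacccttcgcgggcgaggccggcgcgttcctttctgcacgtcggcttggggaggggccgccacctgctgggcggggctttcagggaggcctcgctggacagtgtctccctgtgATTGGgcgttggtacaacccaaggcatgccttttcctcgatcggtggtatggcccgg
Mir1968: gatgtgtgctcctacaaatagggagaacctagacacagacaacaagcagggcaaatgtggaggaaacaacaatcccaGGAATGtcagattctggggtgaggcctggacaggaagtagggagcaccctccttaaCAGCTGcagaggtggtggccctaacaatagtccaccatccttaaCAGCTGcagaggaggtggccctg

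In all, 26 microRNA genes lay at a peak of either list and 10 of them had a mature sequence in RefSeq. These 10 were all at a WT peak, and in 3 of the 10 (Mir1968, Mir449c and Mir1956) the peak covered the mature sequence. At the other 7 the peak was beside it. Of the 24 WT peaks whose nearest noncoding start was a microRNA, 14 were at a predicted gene named by its clone only.

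By gene type, 116 WT peaks lay at processed transcripts, 113 at lincRNAs, 38 at pseudogenes, 25 at microRNAs, 17 at small nuclear RNAs, 16 at small nucleolar RNAs and 5 at other small RNAs (7SK, vault and Y RNA genes among them). The 12 WT peaks at starts of 2 types are counted under each. Single peaks lay at a 5S ribosomal RNA copy and at mitochondrial transfer RNA genes, and 2 at T cell receptor segments (Trav13-2 and Trdj1). In Tet2 KO the numbers were 18, 20, 5, 5, 2, 2 and 1 in the same order. Median fold enrichment of these 7 types in WT lay between 7.36 (processed transcripts) and 9.09 (other small RNAs), a narrow range beside the spread within a type (4.47 to 16.7 for lincRNAs). In Tet2 KO the median was 5.09 for both lincRNAs and processed transcripts.

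**Figure D1:**
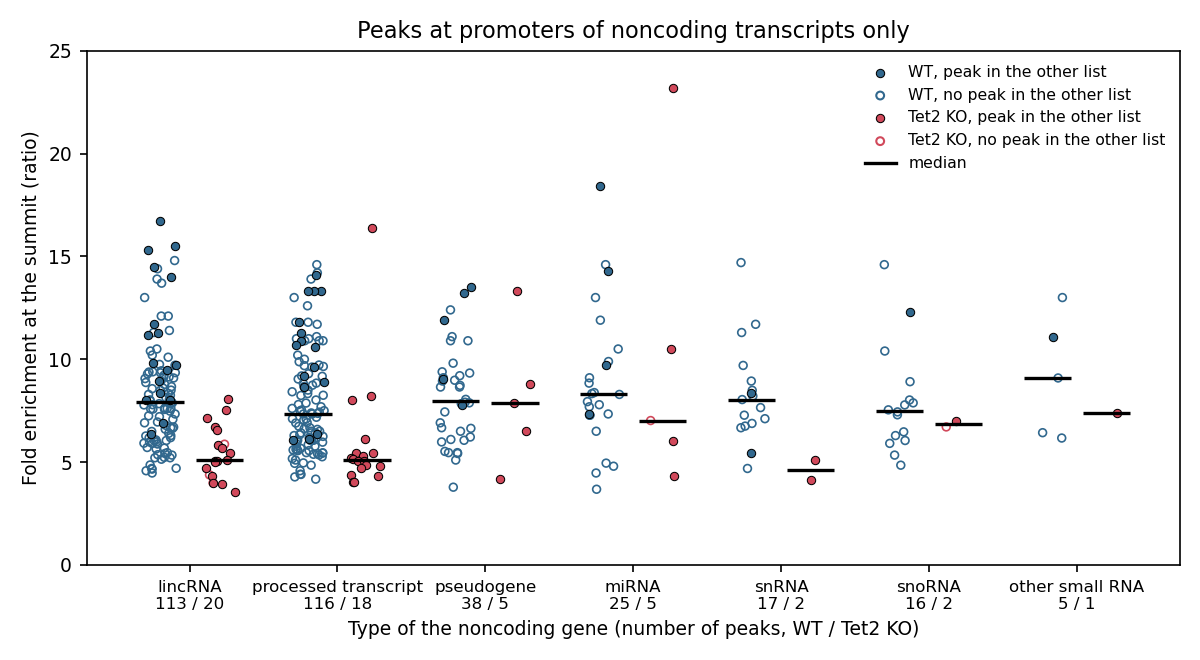
Fold enrichment at the summit (ratio to the local background, vertical axis) of every peak at a promoter of noncoding transcripts only, by gene type, for WT (blue) and Tet2 KO (red). Filled points overlap a peak of the other list, bars are medians, and WT lincRNA peaks reach 16.7-fold while Tet2 KO lincRNA peaks stay at or below 8.05-fold.

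Seen from the genes, 8.48% of the 1273 annotated lincRNA genes had such a WT peak and 1.49% a Tet2 KO peak. For the 2572 processed transcript genes the shares were 4.35% and 0.661%, and for the 5201 pseudogenes 0.731% and 0.0961%. The small RNA classes lay between, at 1.59% of 1577 microRNA genes, 1.19% of 1423 small nuclear RNA genes and 1.16% of 1552 small nucleolar RNA genes in WT. In comparison, 30.2% of the 22380 protein-coding genes had a WT promoter peak and 7.92% a Tet2 KO one. That share takes in peaks whose window also holds a noncoding start, whereas the noncoding shares leave such peaks out. In WT 369 peaks lay at both kinds of start, so the noncoding and protein-coding shares rest on unlike rules. Altogether 330 noncoding genes were reached in WT, 56 in Tet2 KO and 50 in both, and 12 genes had more than 1 WT peak.

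The class given by the annotation did not always hold in RefSeq (GRCm38.p6), which was matched by Ensembl identifier or symbol for 173 of the 336 noncoding genes at a peak of either list. It lists 113 of them as long noncoding RNA and 13 as protein-coding. Among these 13 were Cebpd, the transcription factor C/EBP delta (6.10-fold in WT, no Tet2 KO peak), Frat1 (6.67-fold, no Tet2 KO peak), and Rassf10 (9.04-fold in WT and 6.51-fold in Tet2 KO), all called pseudogenes in GENCODE M1. Such genes account for 13 of the 322 WT peaks and 1 of the 53 Tet2 KO peaks. These 3 were chosen after their values were seen.

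Among lincRNAs the highest WT enrichment was at Gm17372 (chromosome 17, 21625807 to 21626025), at 16.7-fold in WT and 7.55-fold in Tet2 KO. Gm10433 followed at 15.5-fold in WT and 5.0-fold in Tet2 KO, and Gm10390, within Rbm19, at 15.3 and 8.05-fold. All 3 had a Tet2 KO peak. Others of the 10 strongest WT peaks had none: C920006O11Rik (14.8-fold), 2700023E23Rik with the small RNA gene AC115823.1 (14.6-fold) and Gm14004 (14.4-fold), whose window held 3 E boxes. Gm15929, inside Leng1, was 14.5-fold in WT and 5.84-fold in Tet2 KO. The centre of its WT peak (signed distance -663 bp, upstream negative) was nearer to a Leng1 start, at 251 bp. The windows of Gm17372, at chr17:21625817-21626016, with an ETS motif, and of Gm15929, at chr7:3617092-3617291, with 5 CCAAT matches, are given as CpG-poor windows with a peak in both lists.
Gm17372: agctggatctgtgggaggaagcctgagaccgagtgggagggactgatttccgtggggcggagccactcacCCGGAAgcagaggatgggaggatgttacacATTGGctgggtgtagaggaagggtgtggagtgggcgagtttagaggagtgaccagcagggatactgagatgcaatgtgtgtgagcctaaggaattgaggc
Gm15929: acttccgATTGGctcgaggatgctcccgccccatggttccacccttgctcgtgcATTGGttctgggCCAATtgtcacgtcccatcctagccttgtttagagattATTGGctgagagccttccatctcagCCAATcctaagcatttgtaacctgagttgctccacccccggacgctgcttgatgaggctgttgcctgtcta

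Of the processed transcripts, 9530072K05Rik, inside Runx2, had a WT peak of 14.2-fold and no Tet2 KO peak. Gm15564, inside Kpna1, was 14.1-fold in WT and 16.4-fold in Tet2 KO, and is returned to with the repeated sequences. The strongest pseudogene peaks were at Gm10060 (13.5-fold in WT and 8.82-fold in Tet2 KO), Gm13340 (13.2 and 13.3-fold) and Gm6650 (12.4-fold in WT, no Tet2 KO peak). RefSeq lists the last of these as protein-coding.

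The small nuclear RNA peaks were nearly all at copies of U6 and U1. The name U6 stood at 11 WT peaks of 11 separate genes, 10 of them inside a protein-coding gene, with enrichment between 6.67 and 14.7-fold. Of the 11, 0 overlapped a Tet2 KO peak, a number too small to set apart from the 14.1% of all WT peaks that did. The strongest, in an intron of Prkar2a (chromosome 9, 108641609 to 108641901), was centred 566 bp upstream of the copy and its window held an AP-1 motif. U1 stood at 3 WT peaks (7.28 to 11.7-fold), of which that at 11.3-fold lay in an intron of Cdon, a cell surface receptor that promotes myogenic differentiation. These 3 had no Tet2 KO peak either, and are again too few to compare with that background. An annotated U4 gene (5.46-fold in WT and 4.12-fold in Tet2 KO) did have a peak in both lists, as did U6atac, of the minor spliceosome, in one window with the lincRNA Gm13421 (8.37 and 5.11-fold).
U6: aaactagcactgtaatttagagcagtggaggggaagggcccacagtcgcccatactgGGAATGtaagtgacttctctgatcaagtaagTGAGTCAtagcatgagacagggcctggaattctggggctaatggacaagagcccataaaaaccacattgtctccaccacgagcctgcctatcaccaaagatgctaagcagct
Gm13421 and U6atac: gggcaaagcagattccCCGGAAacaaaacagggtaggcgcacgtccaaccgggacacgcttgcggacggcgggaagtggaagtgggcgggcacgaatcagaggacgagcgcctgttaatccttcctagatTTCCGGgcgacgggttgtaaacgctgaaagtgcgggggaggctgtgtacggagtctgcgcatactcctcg

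The windows just printed are chr9:108641656-108641855 and chr2:27395704-27395903, the first with 2 CpG dinucleotides and an AP-1 motif, the second with 20 CpG dinucleotides and a pair of ETS motifs. SNORD60 was the small nucleolar RNA with a peak in both lists, at 12.3-fold in WT and 6.98-fold in Tet2 KO, centred 452 bp upstream of its annotated start in antisense orientation to Rab26. Snord104, with SNORA76, had a WT peak of 10.4-fold and no Tet2 KO peak. Of the genes named SNORA17, 4 had a WT peak (4.85 to 7.88-fold), 0 of the 4 had a Tet2 KO peak (background 14.1%) and all 4 windows held an AP-1 motif (34.2% over all WT peaks), a detail chosen after the values were seen and too few sites for a comparison. An annotated copy of 7SK had a WT peak of 13.0-fold, centred 4 bp downstream of its start and with no Tet2 KO peak, and a vault RNA gene had one of 11.1-fold in WT and 7.37-fold in Tet2 KO.

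Position differed from that at protein-coding promoters, and by gene type. The centre of the WT peaks lay at a median of 155 bp upstream of the nearest noncoding start, against 68.0 bp at protein-coding promoters. By type, with upstream negative, the median was -107 bp at lincRNAs, -115 bp at processed transcripts and -100 bp at small nucleolar RNAs. At a peak with starts of 2 types, the distance is to the nearer start, which may be of the other type. The 11 peaks at small nucleolar RNA starts alone had a median of -198 bp. The median was -480 bp at microRNAs, -433 bp at small nuclear RNAs and -319 bp at pseudogenes. Why the types differ was not tested. Within 100 bp of the start lay 39.1% (126 of 322, interval 34 to 44.6%), against 62.4% (interval 61.3 to 63.6%) of the 6724 WT peaks at protein-coding promoters, and over 500 bp upstream lay 25.2% against 6.54%. The 81 WT peaks over 500 bp upstream of a noncoding start overlapped a Tet2 KO peak in 6 cases (7.41%, interval 3.44 to 15.2%), those between 100 and 500 bp in 21 of 115 (18.3%, interval 12.3 to 26.3%), and those within 100 bp in 18 of 126 (14.3%, interval 9.23 to 21.5%). These 3 intervals overlap, and each takes in the 14.1% of all WT peaks that overlapped a Tet2 KO peak.

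**Figure D2:**
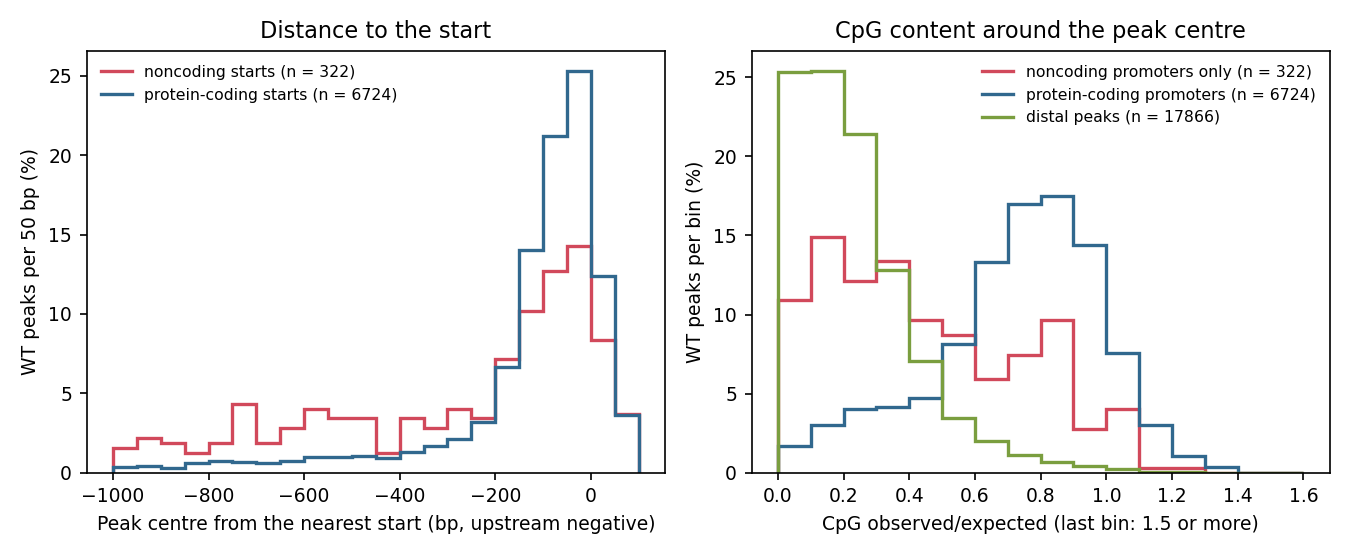
Left, distance of the WT peak centre from the nearest noncoding start (red) or, at protein-coding promoters, from the protein-coding start (blue), as the percent of peaks per 50 bp, with upstream negative. Right, observed over expected CpG in the 200 bp around the centre for the same peaks and for distal peaks (green): the noncoding promoters, with a median of 0.393, spread between distal peaks (0.198) and protein-coding promoters (0.761).

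Most members lay over 5000 bp from a protein-coding start, as did most WT peaks, and the rule itself leaves out peaks close to one. In WT 235 of 322 lay over 5000 bp from any protein-coding start (73.0%, interval 67.9 to 77.5%), and the median distance was 17380 bp. Of the 322, 157 lay between 5000 and 50000 bp and 78 farther. Of all 25775 WT peaks, 9998 and 5663 lay at these distances. Outside protein-coding genes lay 188, in their introns 113 and in their exons 21. Where the peak centre lay in a protein-coding gene, the noncoding gene ran against that gene in 101 cases and along it in 33. By type, all 36 lincRNA peaks inside a protein-coding gene were in antisense orientation, as were 42 of 53 at processed transcripts, while microRNAs ran along their host in 8 of 13 cases. For the 39 WT peaks under 1000 bp from a protein-coding start, the rule left only positions over 100 bp downstream of it. That 37 of them lay inside the body of a protein-coding gene thus follows from the rule. Of these, 31 were in antisense orientation, and 27 of the 39 were CpG-rich.

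The sequence of these promoters was in part that of CpG islands and in part that of distal elements. A window counted as CpG-rich when its GC content was at least 50% and its observed over expected CpG at least 0.6. This held for 91 of 322 WT windows (28.3%), against 72.8% at protein-coding promoters and 3.78% at distal peaks, which lie outside promoters and exons. Median GC content was 55.8%, between 50.5% in distal peaks and 63.5% at protein-coding promoters. The lincRNAs had CpG-rich windows most often (53 of 113, 46.9%) and the processed transcripts seldom (19 of 116, 16.4%). Small nucleolar RNAs had them in 7 of 16, but in 2 of 11 (18.2%) where no start of another type lay at the peak. In Tet2 KO 23 of 53 windows were CpG-rich (43.4%).

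In WT, motifs followed the same middle course. AP-1, the site of Fos and Jun factors, was found in 22.4% of the WT windows (interval 18.2 to 27.2%), against 7.05% at protein-coding promoters, 45.0% in distal peaks and 34.2% in all WT peaks. The E box, the site of MyoD and its relatives, was found in 28.3% (interval 23.6 to 33.4%), against 14.8, 40.0 and 33.6%. For ETS, a motif of housekeeping promoters, the shares were 13.0% (interval 9.80 to 17.2%), 24.8, 4.06 and 9.67%. For both AP-1 and the E box, and for ETS, the intervals lay apart from those of protein-coding promoters and of distal peaks. TEAD was found in 17.1% (interval 13.4 to 21.6%), close to the 17.3% of all WT peaks, and the CRE (TGACGTCA) in 3 of 322. In Tet2 KO, AP-1 and the E box were each found in 5 of 53 windows (9.43%, interval 4.10 to 20.3%), against 27.3 and 28.4% of all Tet2 KO peaks. At Tet2 KO protein-coding promoters the shares were 5.83 and 10.7%, both inside that interval, and in Tet2 KO distal peaks 44.5 and 42.1%. CCAAT, added after the sequences had been seen, was found at least once in 32.6% of the WT windows (interval 27.7 to 37.9%), against 43.4% at protein-coding promoters and 22.9% in distal peaks, and close to the 28.4% of all WT peaks. A match is a description of the letters and does not show that a factor was bound.

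The WT list held 6.08 of these peaks for each one of the Tet2 KO list (interval 4.55 to 8.12), near the 6.72 of all peaks. When peaks under a -log10 q of 5 were left out, the ratio was 9.83 here and 10.7 over all peaks, and when those under 10 were, it was 18.6 and 27.7. Of the 322 WT peaks, 45 overlapped a Tet2 KO peak by at least 1 bp (14%, interval 10.6 to 18.2%), which is the background over all WT peaks (14.1%). The share was 22.9% (interval 21.9 to 23.9%) at protein-coding promoters and 11.0% (interval 10.5 to 11.4%) in distal peaks. With both weighted in 5 groups to the enrichment that the noncoding promoters had, the shares were 20.1% and 10.7%. At the 369 WT peaks that shared a noncoding and a protein-coding start, 27.1% had a Tet2 KO peak (interval 22.8 to 31.9%). The share at noncoding promoters was thus that of the whole list. Its interval did not overlap those of the classes with a protein-coding start, and it overlapped that of distal peaks.

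Divided by CpG content, the shares were again near those of all WT peaks. Among the 231 CpG-poor WT peaks, 25 had a Tet2 KO peak (10.8%, interval 7.44 to 15.5%), against 20.0% (interval 18.3 to 21.9%) of CpG-poor protein-coding promoters, 10.7% (interval 10.3 to 11.2%) of CpG-poor distal peaks and 11.5% of all CpG-poor WT peaks. Among the 91 CpG-rich ones, 20 had one (22.0%, interval 14.7 to 31.5%), against 24.0% at CpG-rich protein-coding promoters and 22.9% of all CpG-rich WT peaks. Median fold enrichment was 7.80 in the CpG-poor and 7.87 in the CpG-rich peaks. By type, the numbers with a Tet2 KO peak were 6 of 60 CpG-poor and 11 of 53 CpG-rich lincRNA peaks, 11 of 97 and 5 of 19 at processed transcripts, 2 of 29 and 3 of 9 at pseudogenes, 2 of 19 and 2 of 6 at microRNAs, and 1 of 13 and 1 of 4 at small nuclear RNAs. The order was the opposite at small nucleolar RNAs (1 of 9 and 0 of 7) and other small RNAs (1 of 3 and 0 of 2). Within each of these types the intervals overlapped.

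Of the 139 WT peaks with AP-1 or an E box, 9 overlapped a Tet2 KO peak (6.47%, interval 3.44 to 11.8%), and of the 183 with neither, 36 did (19.7%, interval 14.6 to 26%). Median fold enrichment was 8.0 with and 7.78 without these motifs. At protein-coding promoters the shares were 17.7% and 24.2%, and in distal peaks 10.8% and 11.4%, so the gap within distal peaks was small. Over all WT peaks they were 11.3% and 17.8%, both inside the intervals of the noncoding promoters. CpG content moved with these motifs: 10 of the 91 CpG-rich and 81 of the 231 CpG-poor windows held an E box, and the parts of the 2 features were not tested.

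By distance to protein-coding starts the share went from 8 of 39 WT peaks under 1000 bp (20.5%, interval 10.8 to 35.5%) to 8 of 78 over 50000 bp (10.3%, interval 5.29 to 19%), with intervals that overlap, beside 21.9% and 10.3% of all WT peaks at these distances. In 5 groups of rising fold enrichment, 2 of 65, 4 of 64, 5 of 63, 10 of 65 and 24 of 65 WT peaks had a Tet2 KO peak. The last of these is 36.9%, beside 39.9% of all WT peaks of such enrichment. The 45 with a Tet2 KO peak had a median of 10.7-fold and the 277 without one 7.58-fold, as over all WT peaks (11.0 and 7.57-fold). Above 10-fold were 42 of those 277 (15.2%, against 16.5% of all WT peaks without a Tet2 KO peak), Mir1968, U6 and C920006O11Rik among them.

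MACS2 numbers its peaks along the genome. Since both lists skip numbers, the intervals between listed Tet2 KO peaks were examined for the 277 WT peaks without a Tet2 KO peak. For 274 of them the interval is defined, and in 43 (15.7%, interval 11.9 to 20.5%) no number is skipped, so no Tet2 KO peak was called there at all. The background over WT peaks without a Tet2 KO peak is 16.3%. In the other 231 a peak may have been called and left out of the list.

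Where both lists had a peak, enrichment was lower in Tet2 KO. Over the 45 WT peaks the median was 10.7-fold in WT and 5.32-fold in the overlapping Tet2 KO peak, with a median ratio of 0.562 (middle 50% of peaks: 0.490 to 0.662). Over all 3633 WT peaks with a Tet2 KO peak the median ratio was 0.531. In fragments at the summit, not scaled to depth, the medians over the 45 were 26 in WT and 15 in Tet2 KO, although the Tet2 KO library had the higher background. The steepest drops were at Gm10433 (15.5 to 5.0-fold, from 33 to 12 fragments) and 1700086O06Rik (11.7 to 3.99-fold). At 5 of 45 sites the Tet2 KO value was the higher one (11.1%), against a background of 1.90% of all WT peaks with a Tet2 KO peak.

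Those 5 sites were mmu-mir-689-2 (18.4-fold in WT and 23.2-fold in Tet2 KO), Gm15564 (14.1 and 16.4-fold), AC140318.1 (9.70 and 10.5-fold), Gm13340 (13.2 and 13.3-fold) and the mitochondrial transfer RNA genes (1.59 and 1.64-fold). In 4 of the 5 most of the peak was repeated sequence, taken as over 50% of its 31-base words occurring more than once in the mm9 reference. The exception was AC140318.1, at 17.8%. The mir-689-2 peak was 90.4% repeated, with each word present a median of 3 times, and for Gm13340 57.5% of the words were also in the mitochondrial genome. Without repeated peaks, 1 of 40 sites was higher in Tet2 KO (2.50%) and the median ratio was 0.551. The part of repeated sequence in these values was not tested otherwise.

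**Figure D3:**
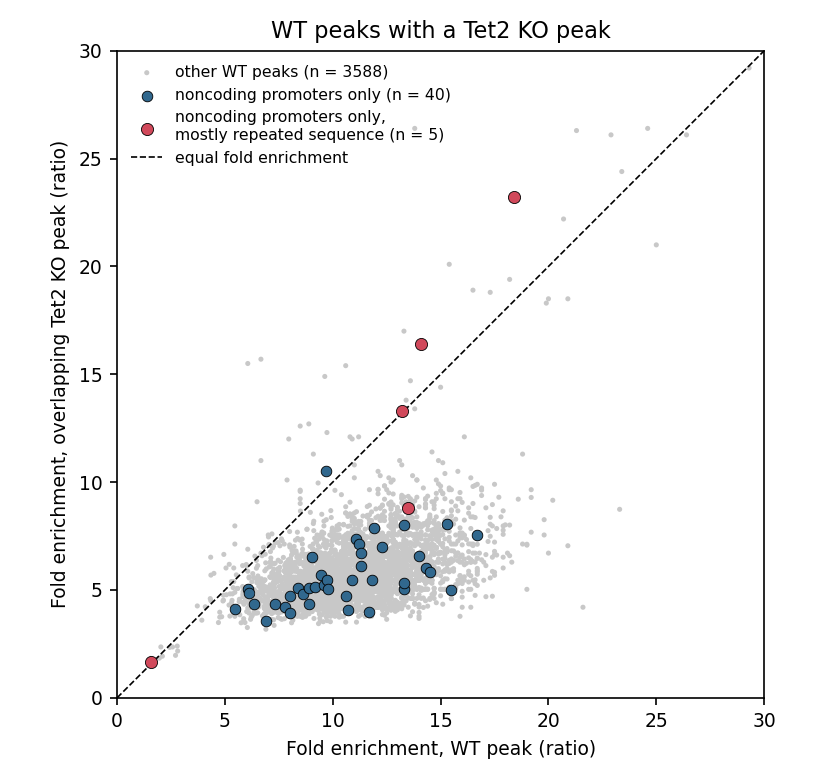
Fold enrichment of each WT peak (horizontal axis, ratio) against that of the overlapping Tet2 KO peak (vertical axis, ratio), for promoters of noncoding transcripts only (blue, or red where mostly repeated sequence) and the other WT peaks (grey). The blue points lie under the line of equal enrichment except AC140318.1, and 4 of the 5 red points lie on or above it.

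Of the 53 Tet2 KO peaks, 47 overlapped a WT peak (88.7%, interval 77.4 to 94.7%), against a background of 96.8% and 98.7% at protein-coding promoters. At 46 of the 47 the WT peak was itself at a noncoding promoter only, and at Gm13834 (8.19-fold in Tet2 KO and 9.59-fold in WT) the WT peak was longer and its centre fell outside the window. The strongest Tet2 KO peaks were mmu-mir-689-2, Gm15564, Gm13340, AC140318.1, Gm10060 and Gm13834, followed by Gm10390, 2610005L07Rik (8.02-fold in Tet2 KO and 13.3-fold in WT), the pseudogene Gm12094 (7.88 and 11.9-fold) and Gm17372. Median enrichment was 5.44-fold, beside 5.59-fold over all Tet2 KO peaks.

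The 6 Tet2 KO peaks that no WT peak overlapped were at n-R5s136, a 5S ribosomal RNA copy (7.55-fold), the predicted microRNA AC115697.1 within Fgfr2 (7.02-fold), a copy of SNORD116 from the imprinted Snrpn region (6.71-fold), the lincRNA AC152164.1 (5.87-fold) and, with a pair of peaks, the lincRNA Gm16869 (4.38 and 3.99-fold). In 5 of the 6 the peak was mostly repeated, and AC115697.1, at 22.6%, was the exception. The words of the 5S copy occurred a median of 51.0 times in the reference. Of the 53 Tet2 KO peaks 10 were mostly repeated (18.9%), against 10 of 322 in WT (3.11%) and 96 of all 3836 Tet2 KO peaks (2.50%). Of the 10, 5 had a WT peak, as did 42 of the 43 in single-copy sequence (97.7%, interval 87.9 to 99.6%). Several repeated sites of both lists, at Gm10060, 6820431F20Rik, AC152164.1 and 2610005L07Rik, lie in 1 stretch of chromosome 8, between 19784411 and 20020510.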

How the data were processed

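Chromatin accessibility was profiled by ATAC-seq in myoblasts of 2 WT and 2 Tet2 KO samples. Reads were trimmed by the authors, who aligned them to mm9 with Bowtie2, removed duplicates and called peaks with MACS2. The lists deposited by the authors hold the MACS2 score, the fold enrichment of the summit (a ratio with a pseudocount, used as deposited), its -log10 p and -log10 q, and the summit position. Genotype came from the list names.

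Summit and background fragments were solved from fold and -log10 p. Promoters came from GENCODE M1 (every transcript start), and motifs from 200 bp around the peak centre. Distal peaks lie outside promoters and exons. Peaks overlapped from 1 bp, and shares have Wilson 95% intervals. The members, lists and named genes were chosen with earlier results of these data known. Named were listed noncoding RNAs at a member, the 10 strongest members per list, the 3 strongest of each type with at least 10 WT members, and Tet2 KO members without a WT peak. Alternatives changed the promoter rule, the peak limits, the overlap and the chromosomes. The steps were tested on simulated data. The tools were Python 3.11.15 with matplotlib 3.10.9, numba 0.67.0, numpy 2.4.6, pandas 2.3.3 and scipy 1.17.1. Other data of the series were not used here.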

Additional observations from a re-analysis of the deposited data

How the results depend on the processing

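No paired analysis was possible because there is 1 list for each genotype, tied to no replicate, and for the same reason no replicate could be left out. With 14 alternatives, 61 of 76 values stayed within 1.5 times (counts) or within the interval (shares and the ratio). Stricter limits in both lists removed a larger share of the Tet2 KO than of the WT members. At a -log10 q of at least 5, Tet2 KO had 30 members, the WT to Tet2 KO ratio was 9.83 and 7.80% of WT members had a Tet2 KO peak. At a -log10 q of at least 10 there were 167 WT and 9 Tet2 KO members, a ratio of 18.6, a WT share of 4.79% and a Tet2 KO share of 100%. At a fold enrichment of at least 5, there were 35 Tet2 KO members, a ratio of 8.60 and a WT share of 9.97%. Over all peaks the ratio also rose, to 10.7 and 27.7 at these -log10 q limits and 9.18 at this fold limit. No share over all WT peaks is given beside these WT shares, so they are not shown to be particular to the members. The Tet2 KO share with a WT peak was 95.5% with promoters cut to 500 bp upstream, 67.9% with an overlap of 50% of each peak, and 95.3% without mostly repeated peaks, an alternative added after seeing the data, as was leaving out genes that RefSeq lists as protein-coding. With promoters of 1000 bp on either side, 81.4% of WT members lay over 5000 bp from a protein-coding start. With a median of 16 fragments at a WT summit and 15 at a Tet2 KO summit, counts this low limit what can be detected, and a site missing from a list is not shown to be closed.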

Other observations

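Several WT peaks at noncoding starts came in pairs at 1 gene. The 12 genes with a pair of WT peaks included 1700113A16Rik (4.58 and 11.3-fold), 4921507L20Rik (6.91 and 10.4-fold, both with an AP-1 motif) and Gm12305 (5.44 and 13.3-fold). At Gm12305, Gm16008, Gm6410 and RP24-498F17.1, 1 peak of the pair overlapped a Tet2 KO peak and the other did not. At the other 8 neither did. These are too few genes to set apart from the 14.1% of all WT peaks that overlapped a Tet2 KO peak. These genes were chosen after their values were seen.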
